A study of Mus musculus with 8 samples.

Results

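The cytosolic heat shock genes examined here were Hsf1, Hspa1a, Hspa1b, Hspa2, Hspa4, Hspa8, Hspb1, Hsph1, Dnajb1 and Hsp90aa1. Their probes were taken as every non-control probe whose accession in the array design belongs to one of these symbols. This gave 14 probes for 9 of the 10 genes, among 55681 non-control probes with 20145 gene symbols, and no probe was matched to Hspa1b. All 14 were well above background on all 8 arrays.

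Total RNA of powdered hippocampus was hybridised to SurePrint G3 Mouse GE 8x60K oligonucleotide arrays, all on 1 slide, with 1 labelled sample per array. All mice were male C57BL/6J of 11 weeks, and 8 mice per group were studied. ME mice ran on a treadmill at mild intensity and ate food with a placebo powder, AX mice stayed sedentary and ate food with an astaxanthin powder, AX+ME mice had both, and SED mice stayed sedentary on the placebo powder. The powder made up 0.5% of the food and held 2% astaxanthin, a carotenoid from a green alga. Each group had 2 samples, replicate 1 in the dye Cy3 and replicate 2 in the dye Cy5. The labels do not say how 2 samples were made from the 8 mice of a group, so the spread between the samples of a group may be technical. A group lay in 1 column of the slide and a dye in 1 row, so group and slide column cannot be told apart. In bulk tissue, fewer cells of a type and less RNA per cell cannot be told apart.

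The heat shock response protects cells from misfolded protein. Heat, oxidants and other stresses free the transcription factor HSF1 from chaperones that hold it inactive, and HSF1 then binds heat shock elements, repeats of the letters nGAAn in alternating orientation, in the promoters of chaperone genes. Hsp70 proteins bind unfolded stretches with the help of Hsp40 partners, Hsp110 proteins exchange their nucleotide, and Hsp90 completes the folding of many kinases and receptors. Neurons make large amounts of constitutive Hsc70 and Hsp90 at rest and little inducible Hsp70.

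The promoter windows of 4 members are printed to show the letters through which HSF1 is known to act and a member whose window holds none of them. Windows of 300 bases around the start site were taken from RefSeq on build GRCm38.p6, where 7 of the 10 members had 9 windows. They run 5′ to 3′ on the strand of the gene, and capitals mark matches to GAANNTTC or TTCNNGAA, where N is any base. Both motifs read the same on either strand, and matches may overlap. Hspa1a lies at chr17:34969359-34972156, Hspb1 at chr5:135887919-135889563, Hsph1 at chr5:149616843-149636498 and Dnajb1 at chr8:83608175-83612653.
Hspa1a, chr17:34972107-34972406, minus strand: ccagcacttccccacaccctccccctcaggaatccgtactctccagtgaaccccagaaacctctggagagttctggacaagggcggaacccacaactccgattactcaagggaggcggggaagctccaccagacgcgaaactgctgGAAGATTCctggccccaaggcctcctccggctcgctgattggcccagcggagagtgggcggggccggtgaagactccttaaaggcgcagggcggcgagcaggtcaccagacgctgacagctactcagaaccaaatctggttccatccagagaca
Hspb1, chr5:135887669-135887968, plus strand: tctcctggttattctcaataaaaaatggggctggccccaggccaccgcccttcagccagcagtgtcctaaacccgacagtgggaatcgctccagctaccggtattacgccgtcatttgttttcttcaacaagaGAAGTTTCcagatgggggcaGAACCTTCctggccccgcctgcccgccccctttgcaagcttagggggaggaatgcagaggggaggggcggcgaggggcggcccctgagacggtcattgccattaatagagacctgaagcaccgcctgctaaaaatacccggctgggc
Hsph1, chr5:149636287-149636586, minus strand: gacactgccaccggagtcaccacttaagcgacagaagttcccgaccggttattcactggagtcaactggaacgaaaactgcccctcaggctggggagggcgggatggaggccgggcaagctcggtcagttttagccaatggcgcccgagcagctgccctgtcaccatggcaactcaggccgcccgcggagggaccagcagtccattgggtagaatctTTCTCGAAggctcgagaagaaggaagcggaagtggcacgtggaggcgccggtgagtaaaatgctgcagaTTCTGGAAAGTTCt
Dnajb1, chr8:83607925-83608224, plus strand: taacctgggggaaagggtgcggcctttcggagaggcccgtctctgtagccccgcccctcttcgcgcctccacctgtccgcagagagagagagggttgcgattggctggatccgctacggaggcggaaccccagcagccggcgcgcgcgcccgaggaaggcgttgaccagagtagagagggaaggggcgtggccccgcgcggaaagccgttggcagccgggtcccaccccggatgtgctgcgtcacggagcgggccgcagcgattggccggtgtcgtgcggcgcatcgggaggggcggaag
The Hspa1a window held 1 match, 104 bases before the start site, and the Hspb1 window held 2, at 117 and 97 bases before it. In the Hsph1 window 1 match lay 33 bases before the start site and 2 overlapping matches lay after it, and the overlapping ones together form a run of 3 units of the heat shock element. Neither of the 2 windows of Dnajb1 held these letters, nor did those of Hspa2 and Hspa4. Only exact matches within the windows were sought, so a window without one does not show that the gene lacks heat shock elements. Of the 9 member windows 5 held a match (55.6%), against 15.1% of 32851 windows of all genes. Those 5 include both overlapping windows of Hsph1 and the near-identical windows of Hspa1a and Hspa1b, so they are not independent. Such runs of 3 alternating units, in either orientation, were in 2 of the 9 member windows, both of Hsph1 and overlapping each other, and in 0.603% of all windows. Hspa1b, which has no matched probe, had a window with the same match as Hspa1a, and the 2 windows were identical at 296 of 300 positions.

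Signals are the processed own-dye intensity of the probe divided by the 75th percentile of all non-control spots on the same array, so a value of 1 is a signal at that percentile. The percentile ranged over the 8 arrays from 1419 to 2319 intensity units, and 63.2% to 76.2% of spots were well above background. Both SED arrays had areas of dim spots at array columns below 70. In those columns 4.58% of spots on the Cy3 SED array and 6.78% on the Cy5 SED array were at least 2-fold dimmer than on the other arrays of the dye, against 0.427% or less on each of the other 6 arrays. The probes of Dnajb1 (column 18), Hspa1a (column 53) and Hspb1 (column 64) lie in these columns, and the other 11 member probes lie from column 70 on. The dissection was checked on markers. All 10 hippocampal neuron markers and all 7 astrocyte markers were detected on all 8 arrays. Of 5 pituitary genes, Pomc was detected on all 8 arrays, Gh on 7, Prl on 6, Cga on 4 and Tshb on 0. All 8 choroid plexus genes and all 6 meningeal genes were detected on all 8 arrays too.

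Hsf1, the master factor of the response, was at nearly the same level in all groups. Its signal (column 117) was 3.10 in Cy3 and 2.90 in Cy5 in ME mice, 3.13 and 3.02 in AX mice, 3.10 and 3.07 in AX+ME mice, and 2.80 and 3.09 in SED mice. The Cy3 SED sample was the lowest of the 8, and the Cy5 SED sample lay among the other groups. The log2 difference was 0.03 in ME mice, 0.06 in AX mice and 0.07 in AX+ME mice against SED mice, with a standard error of 0.08 each, and the 95% intervals ran from -0.18 at the lowest to 0.27 at the highest.

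Hspa1a, the stress-inducible Hsp70, gave a signal below the 75th percentile on every array. It was 0.868 in Cy3 and 0.728 in Cy5 in ME mice, 0.843 and 0.684 in AX mice, 0.842 and 0.807 in AX+ME mice, and 0.892 and 0.834 in SED mice. SED was the highest group in both dyes, but its Cy5 value lay below the Cy3 values of the 3 other groups. The log2 differences from SED mice were -0.12 ± 0.08 in ME mice, -0.18 ± 0.08 in AX mice and -0.06 ± 0.08 in AX+ME mice (± SE, n = 2 each), with adjusted p in limma of 0.467, 0.271 and 0.644. Hspa1a and Hspa1b are near-identical copies, so the Hspa1a probe may also read Hspa1b transcripts.

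Hspa2, an Hsp70 best known from sperm and also made in brain, had a signal (column 73) of 7.65 in Cy3 and 7.66 in Cy5 in ME mice, 8.04 and 7.72 in AX mice, 7.53 and 7.58 in AX+ME mice, and 8.04 and 9.08 in SED mice. The Cy5 SED sample was the highest of the 8. Its log2 difference was -0.16 in ME mice, -0.12 in AX mice and -0.18 in AX+ME mice against SED mice (SE 0.08, adjusted p in limma of 0.310, 0.408 and 0.211). The 64 spots adjacent to it had a median log2 deviation on the Cy5 SED array of 0.27 from the other Cy5 arrays, beside 0.25 for the Hspa2 spot itself.

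Hspa8 encodes Hsc70, the constitutive chaperone that also strips clathrin from vesicles. It had 3 probes, of which A_55_P2069721 (column 77) and A_55_P2080603 (column 89) were saturated on all 8 arrays, at processed signals of 51725 to 64128, and give no difference. The third, A_52_P12877 (column 122), read 19.0 in Cy3 and 17.1 in Cy5 in ME mice, 20.3 and 16.1 in AX mice, 19.8 and 18.5 in AX+ME mice, and 18.8 and 17.8 in SED mice. The AX samples were both the highest and the lowest of the 8. Its log2 differences from SED mice lay between -0.02 and 0.06 with a standard error of 0.09, and the 95% intervals lay within -0.25 and 0.29.

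Hspa4 and Hsph1 encode Hsp110 proteins, which exchange the nucleotide of Hsp70. Hspa4 had 3 probes that disagreed. Probe A_51_P200477 (column 162) read 8.49 and 7.65 in ME mice, 7.29 and 7.93 in AX mice, 6.85 and 7.64 in AX+ME mice, and 8.37 and 7.73 in SED mice, and AX+ME was the lowest group in both dyes. Probe A_55_P2054157 (column 150) read 6.13 and 5.54 in ME mice, 5.50 and 5.45 in AX mice, 5.77 and 5.47 in AX+ME mice, and 6.24 and 5.98 in SED mice. Here SED was the highest and AX the lowest group in both dyes, with a log2 difference in AX mice of -0.16 ± 0.06 (adjusted p = 0.207, limma). Probe A_55_P2061025 (column 126) read 2.96 and 1.69 in ME mice, 2.08 and 1.99 in AX mice, 1.58 and 1.98 in AX+ME mice, and 2.07 and 1.49 in SED mice. Its standard error was 0.29, against 0.06 for the second probe, and its log2 difference between AX+ME and ME mice was -0.90 in Cy3 and 0.23 in Cy5.

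Hsph1 was level across the groups on both of its probes. Probe A_55_P2003513 (column 94) read 11.4 and 10.1 in ME mice, 10.8 and 9.63 in AX mice, 10.7 and 10.1 in AX+ME mice, and 11.3 and 10.2 in SED mice. Probe A_55_P2176963 (column 160) read 28.9 and 23.8 in ME mice, 26.9 and 23.9 in AX mice, 28.8 and 24.1 in AX+ME mice, and 28.5 and 24.6 in SED mice. Cy3 read above Cy5 in every group on both probes, and all groups overlapped. The largest log2 difference from SED mice was -0.08 ± 0.06, in AX mice on the first probe.

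Hsp90aa1, the inducible cytosolic Hsp90, has a probe (column 164) that was saturated on all 8 arrays, at processed signals of 60964 to 73158, so no difference can be read from it.

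Dnajb1, the Hsp40 that feeds substrates to Hsp70, was the member whose groups stood apart. Its signal (column 18) was 22.5 in Cy3 and 21.7 in Cy5 in ME mice, 19.6 and 19.4 in AX mice, 20.8 and 20.0 in AX+ME mice, and 27.9 and 32.9 in SED mice. Both SED samples were above the other 6, and the AX samples were the lowest of the 4 groups in both dyes. No Dnajb1 spot was flagged as saturated. Its processed signal on the Cy5 SED array was 67101, above the 51725, 53425 and 60964 of the saturated Hspa8 and Hsp90aa1 probes there. How this bears on the Dnajb1 difference was not tested. The log2 difference was -0.46 ± 0.09 in ME mice, -0.64 ± 0.09 in AX mice and -0.57 ± 0.09 in AX+ME mice against SED mice (± SE, n = 2 each), and it was negative in both dyes in each comparison.

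The Dnajb1 differences did not pass the threshold of 0.05 in limma after Benjamini-Hochberg adjustment over 37429 probes. The adjusted p was 0.0934 in ME, 0.0567 in AX and 0.0515 in AX+ME mice against SED mice. In AX+ME mice it was 0.0482 when the 75th percentile was taken over probes after averaging their spots, a scaling that was fitted first and then replaced so that the fitted percentile is the one printed here, and the call depends on that choice. The log2 differences were smaller under normexp background correction, at -0.24 in ME, -0.41 in AX and -0.35 in AX+ME mice, where the median of all probes was -0.15, -0.13 and -0.12. Among alternative settings that kept both samples of the groups compared, the adjusted p in AX+ME mice ranged from 0.0356 under normexp to 0.344 with only the samples compared. Under normexp 16.7% of all probes were called for AX+ME against SED, beside 4.29% in the fit reported. Leaving out SED replicate 1 or 2 left 1 SED sample, and the Dnajb1 difference in AX+ME mice was then -0.71 or -0.43. The unadjusted 95% intervals did not hold 0, from -0.71 to -0.20 in ME, -0.89 to -0.38 in AX and -0.82 to -0.32 in AX+ME mice. Between AX+ME and ME mice the difference was -0.12 ± 0.09, and between AX+ME and AX mice it was 0.07 ± 0.09.

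The spots around Dnajb1 were also brighter on the SED arrays, by less than Dnajb1. On the SED arrays the Dnajb1 spot was 0.42 (Cy3) and 0.69 (Cy5) above the other 3 arrays of its dye on the log2 scale, while the 69 spots within 5 rows and columns had medians of 0.16 and 0.13. Of those neighbours 10.1% deviated further upward than Dnajb1 in Cy3, where Dnajb1 lay at about their 90th percentile of 0.41, and none did in Cy5. None of them was at least 2-fold dimmer on a SED array. Red cell genes, all 4 detected on all arrays, had their highest sums in SED mice, at 8.72 and 8.35 in ME mice, 8.77 and 8.58 in AX mice, 8.23 and 7.55 in AX+ME mice, and 11.0 and 12.7 in SED mice. Most of that sum is Hba-a1, an alpha globin gene, whose log2 difference from SED mice was -0.64 in ME, -0.63 in AX and -0.76 in AX+ME mice (adjusted p = 0.0903, 0.0849 and 0.0532 in limma). The red cell genes did not move together: in AX+ME mice Slc4a1, the anion exchanger, rose (0.77, adjusted p = 0.0336) and Alas2, the heme synthesis enzyme of red cells, fell (-0.48, adjusted p = 0.0447). Choroid plexus genes were lower than in SED mice on 9 of 9 probes in ME mice (5 called), 7 of 9 in AX mice (0 called) and 9 of 9 in AX+ME mice (6 called), with summed signals of 54.4 and 44.9 in ME mice, 57.9 and 49.4 in AX mice, 49.0 and 47.0 in AX+ME mice, and 64.5 and 49.3 in SED mice. The largest part of that sum was Ttr, whose signal of 25.8 to 41.0 lay near the 25.4 to 40.0 of the saturated Hspa8 probes. The probe counts of these lists leave out probes saturated on all 8 arrays, but the sums do not. The choroid plexus sums may thus be limited by saturation of Ttr. Pituitary genes summed to 0.608 and 0.618 in ME mice, 1.03 and 0.990 in AX mice, 0.962 and 0.948 in AX+ME mice, and 1.45 and 1.36 in SED mice. That sum mostly follows Pomc, at 0.574 to 1.31 over the arrays. Prl, Gh, Cga and Tshb were dim, at no more than 0.096, 0.078, 0.025 and 0.014. Of the 4 kept probes of the pituitary genes, Pomc among them, 4 were lower in ME mice (3 called), 1 in AX mice (1 called) and 2 in AX+ME mice (1 called). Meningeal genes were lower on 6 of 6 probes in ME mice (2 called), 4 of 6 in AX mice (1 called) and 3 of 6 in AX+ME mice (0 called), and summed to 21.8 to 23.3 in the treated groups against 26.0 and 23.8 in SED mice. Beside the calls in these tissue lists, 0.537% of all probes were called lower in ME, 0.606% in AX and 1.58% in AX+ME mice. Called in either direction were 2.09%, 2.31% and 4.29% of all probes. Immediate early genes, all 8 detected, summed to 52.0 and 53.3 in ME mice, 48.4 and 49.2 in AX mice, 49.6 and 49.7 in AX+ME mice, and 59.9 and 56.4 in SED mice. Most of that sum was Egr1, Arc and Nr4a1, while Fos was at 1.05 to 1.29. Sums of microglia (39.0 and 37.2 in SED mice), endothelium (28.2 and 26.8) and oligodendrocytes (102 and 91.0) were also highest in SED mice in both dyes. Those of hippocampal neurons, astrocytes, and pericytes and smooth muscle were not. The part of the neighbouring spots, red cells, choroid plexus, pituitary, meninges, early genes and these other cell types in the Dnajb1 difference was not tested.

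Hspb1, the small heat shock protein that keeps unfolding proteins soluble, differed on 1 array. Its signal (column 64) was 7.64 and 7.28 in ME mice, 7.09 and 7.12 in AX mice, 7.26 and 7.35 in AX+ME mice, and 2.69 in Cy3 and 7.47 in Cy5 in SED mice. The Cy5 SED sample lay within the range of the 6 others, and the Cy3 SED sample alone was low. On that array the Hspb1 spot deviated by -1.44 on the log2 scale, against a 10th percentile of -1.05 among the 60 adjacent spots, of which 7 were at least 2-fold dimmer. The log2 difference from SED mice was 1.505 in ME, 1.396 in AX and 1.43 in AX+ME mice in Cy3, and -0.04, -0.07 and -0.02 in Cy5. None of the 3 comparisons passed (adjusted p = 0.382, 0.401 and 0.338 in limma).

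**Figure D1:**
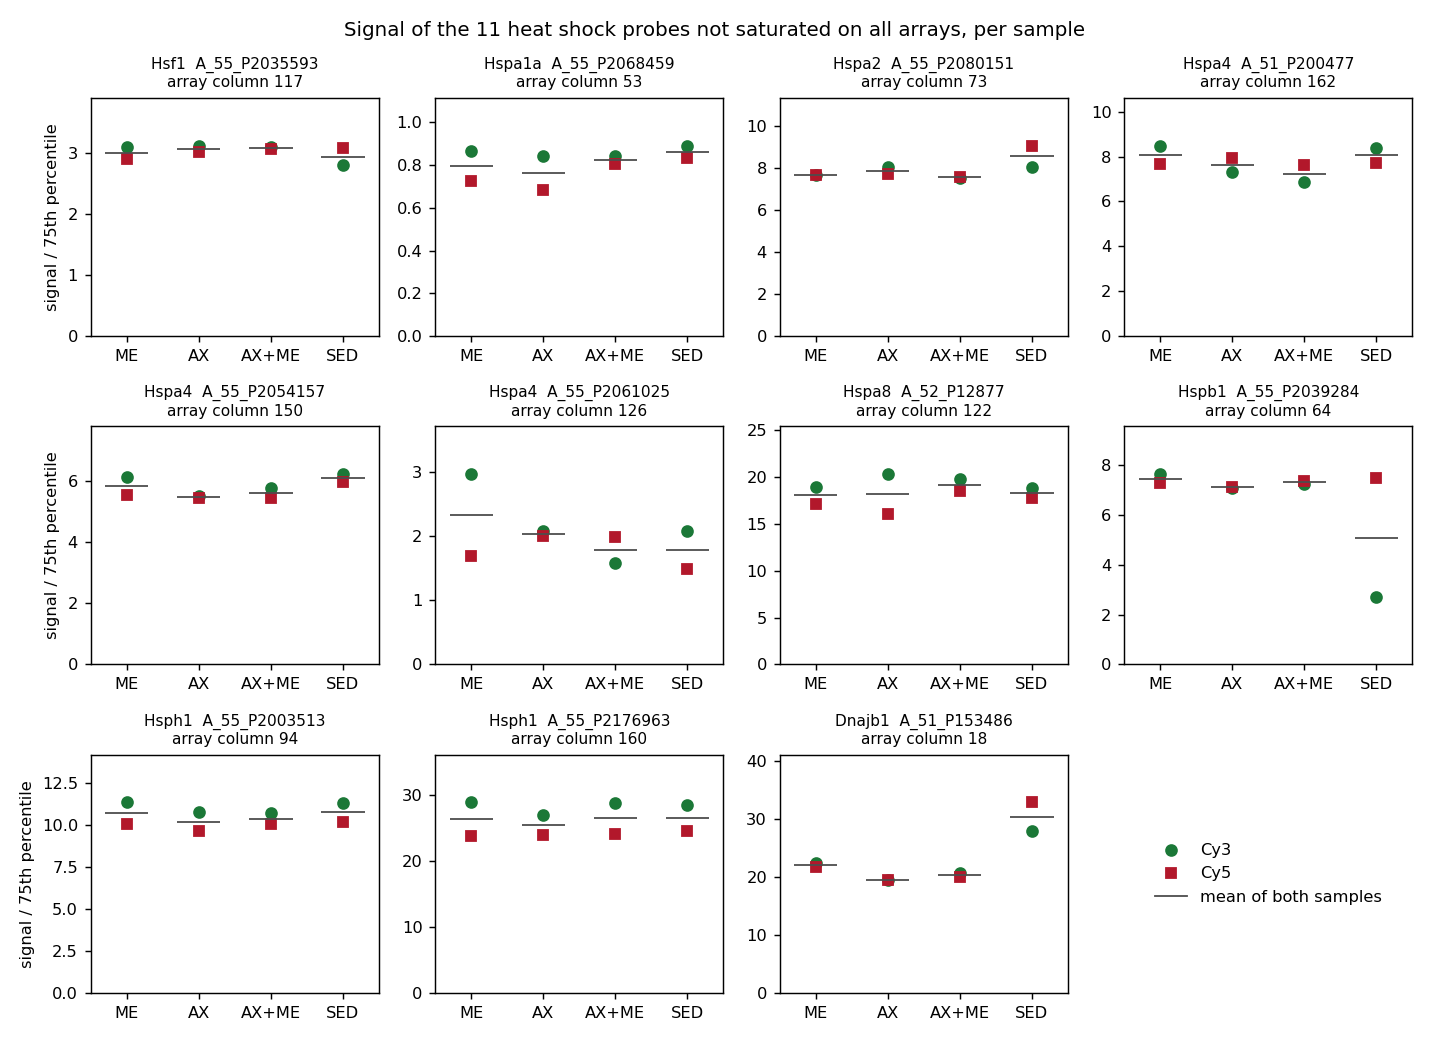
Signal over the array's 75th percentile (vertical axis, linear, from 0) for the 11 probes not saturated on all arrays, by group, with 1 point per sample (circles Cy3, squares Cy5) and a line at the mean of both. SED samples stand above the others for Dnajb1, and the Cy3 SED sample alone is low for Hspb1 at 2.69, while most other panels are level.

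**Figure D2:**
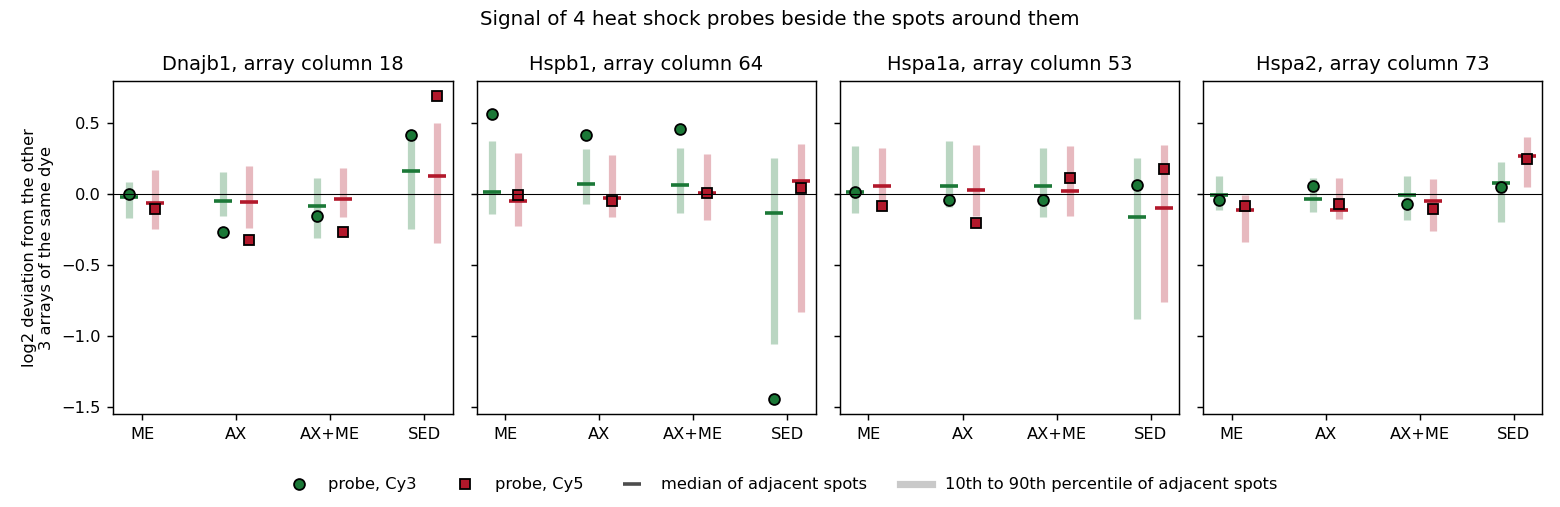
Log2 deviation of a spot from the other 3 arrays of its dye (vertical axis) for Dnajb1, Hspb1, Hspa1a and Hspa2, by group, with points for the probe and, for spots within 5 rows and columns, a short line at the median and a bar from the 10th to the 90th percentile. Dnajb1 lies at about the 90th percentile of its neighbours on the Cy3 SED array and above all of them on the Cy5 SED array, Hspb1 lies below their 10th percentile on the Cy3 SED array, and Hspa2 lies near the median of its neighbours.

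Taking the 11 probes that were not saturated together, 0 passed in any of the 8 comparisons. In limma over all probes 2.09% of probes were called for ME against SED, 2.31% for AX against SED and 4.29% for AX+ME against SED. When AX+ME mice were set against either single treatment 0% were called, for the interaction 0.168%, for exercise averaged over diets 0.35% and for astaxanthin averaged over activity 0.598%. At an unadjusted p under 0.05, 1 member probe, Dnajb1, was below the threshold in each comparison other than AX+ME against ME and AX+ME against AX, where there was none. That is 9.09% of the member probes, while the share over all 37429 probes was 22.5% in ME mice, 24.3% in AX mice and 29.7% in AX+ME mice against SED mice, 13.5% for the interaction, 18.1% for exercise and 23.4% for astaxanthin. The smallest adjusted p of a member was 0.742 for AX+ME against ME, 0.961 for AX+ME against AX and 0.252 for the interaction. Among the 8 member probes from column 70 on, fitted with the probes of those columns only, the smallest adjusted p against SED was 0.298 in ME, 0.178 in AX and 0.179 in AX+ME mice, where 0%, 0% and 0.00912% of probes were called.

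Against SED mice the members' median log2 difference was close to 0, as was that of all probes. It was -0.02 in ME, -0.08 in AX and -0.05 in AX+ME mice against SED mice, beside -0.05, -0.03 and -0.02 over all probes. Of the 11 probes, 7, 8 and 7 were lower than in SED mice in these comparisons. For astaxanthin averaged over activity the members' median was -0.06, beside -0.0007 over all probes, with 8 probes lower and 3 higher. For exercise averaged over diets it was 0.008, beside -0.018 over all probes, with 4 lower and 7 higher. SED was the highest of the 4 groups in both dyes for 3 of 11 member probes (Hspa1a, Hspa4 A_55_P2054157 and Dnajb1) and for 25% of all probes. AX was the lowest in both dyes for 2 of 11, against 7.11% of all probes, and AX+ME for 2 of 11, against 8.01%. The 3 comparisons against SED share the SED samples, so their values are not independent.

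**Figure D3:**
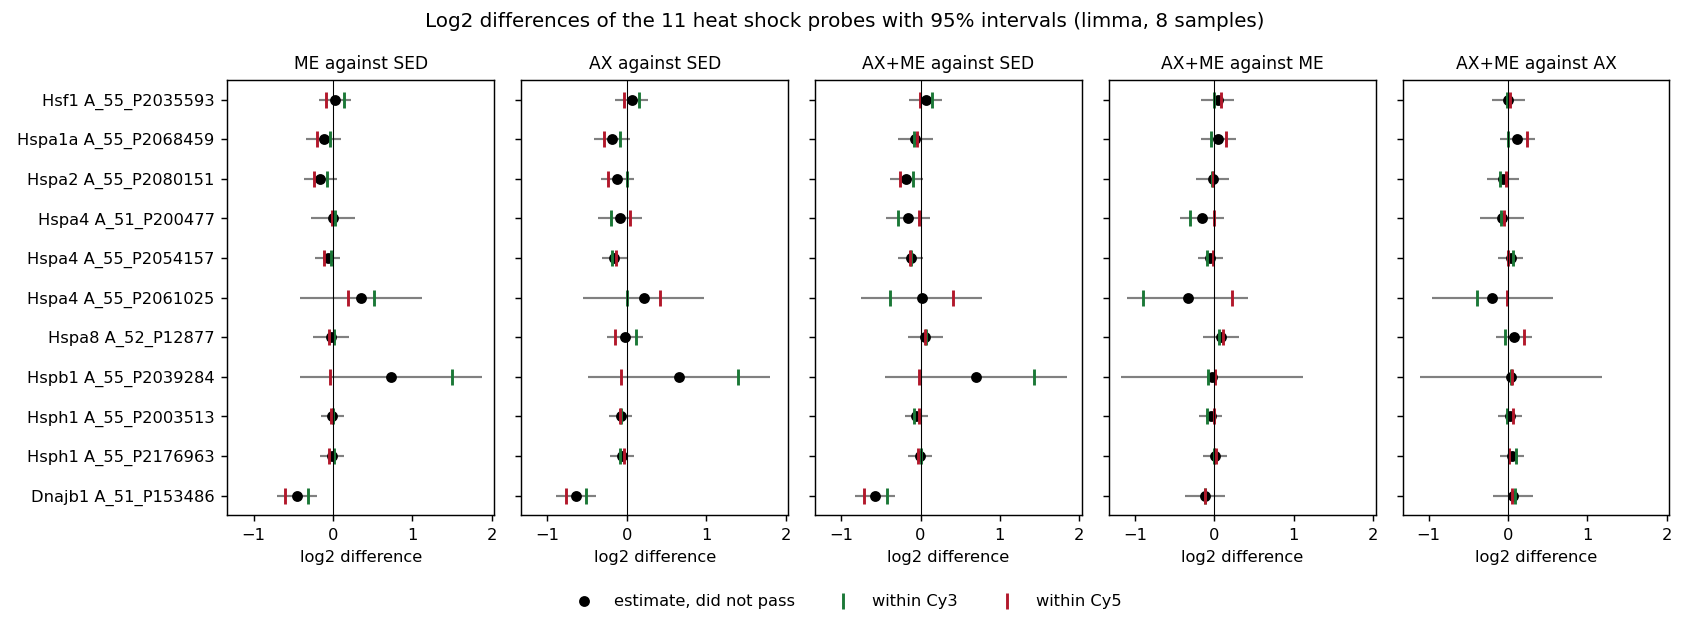
Log2 difference (horizontal axis) of the 11 probes in 5 comparisons, with the limma estimate as a black point, its 95% interval as a grey line and the within-dye differences as green (Cy3) and red (Cy5) ticks. Dnajb1 lies left of 0 with both ticks in the 3 comparisons against SED, and Hspb1 has 1 tick far to the right and 1 near 0.

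Of 63 other genes of the wider chaperone system, grouped in 9 lists, 60 had a probe that was kept, on 82 probes. Hsp90ab1 and Dnajc5 each had a probe saturated on all 8 arrays, which leaves 80. For ME against SED 1 probe was called higher and 0 lower, for AX against SED 1 higher and 0 lower, and for AX+ME against SED 2 higher and 1 lower, where 1.55%, 1.7% and 2.71% of all probes were called higher and 0.537%, 0.606% and 1.58% lower. Medians of the 80 probes were -0.04, -0.08 and -0.06, beside -0.05, -0.03 and -0.02 over all probes. For astaxanthin averaged over activity their median was -0.05, beside -0.0007 over all probes, with 56 probes lower and 24 higher.

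Ppp5c, a phosphatase that binds Hsp90 (column 15), rose in all 3 groups, with a log2 difference of 0.67 in ME mice (adjusted p = 0.0269), 0.63 in AX mice (adjusted p = 0.0301) and 0.67 in AX+ME mice (adjusted p = 0.024). It read 5.70 and 5.38 in ME mice, 5.50 and 5.22 in AX mice, 5.65 and 5.42 in AX+ME mice, and 3.39 and 3.56 in SED mice. The Ppp5c probe lies in the dim columns, and 11 of its 55 adjacent spots in Cy3 and 5 in Cy5 were at least 2-fold dimmer on the SED arrays, whose part in the difference was not tested. In each of the 3 comparisons the Ppp5c call was lost in 7 of 18 alternative settings, which were leaving out any 1 of the 6 treated samples and using only the samples compared, with adjusted p up to 0.416 in ME, 0.405 in AX and 0.327 in AX+ME mice. Under normexp its difference was larger, at 1.252 in ME, 1.24 in AX and 1.27 in AX+ME mice. Ppid, the Hsp90 partner cyclophilin 40 (column 55), fell in AX+ME mice (log2 difference -0.49, adjusted p = 0.0433), at 17.2 and 17.8 in AX+ME mice against 25.2 and 23.9 in SED mice. On the Cy5 SED array its adjacent spots had a median deviation of -0.31, opposite to the probe's own 0.35. The Ppid call was lost in 9 of 18 settings, those 7 with normexp (-0.25, adjusted p = 0.163) and quantile scaling (-0.40, adjusted p = 0.0551), and its adjusted p ran from 0.0297 to 0.344.

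Hsf4, a heat shock factor best known for its role in the lens (column 78), rose in AX+ME mice by 0.39 ± 0.06 (adjusted p = 0.0476), at 0.286 and 0.288 in AX+ME mice against 0.216 and 0.221 in SED mice. The call was lost in 11 of 19 settings, with adjusted p from 0.0334 to 0.344: the same 7, leaving out SED replicate 2 (adjusted p = 0.0633), no dye term as replicate block (adjusted p = 0.0518), probes from column 70 on (adjusted p = 0.0625), and normexp (0.21, adjusted p = 0.171). The mitochondrial chaperonin genes Hspe1 (Hsp10) and Hspd1 (Hsp60), chosen after their values were seen, were lower in AX+ME mice in both dyes without passing. Probe A_55_P1953063 of Hspe1 read 2.76 and 3.10 in AX+ME mice against 3.36 and 3.85 in SED mice (log2 difference -0.30, adjusted p = 0.0548). The other Hspe1 probes lie in the dim columns. In AX+ME against SED mice A_55_P2089358 (column 12) gave -0.39 and A_66_P124952 (column 25) gave -0.41 (adjusted p = 0.104 and 0.0718 in limma). Hspd1 read 19.9 and 21.1 in AX+ME mice against 24.6 and 26.1 in SED mice (log2 difference -0.31, adjusted p = 0.0551). The neighbours of Hspd1 had median deviations of 0.13 and 0.22 on the SED arrays, beside 0.25 and 0.27 for the probe, and their part in the difference was not tested.

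None of the remaining chaperone probes passed. The other small heat shock genes had 6 of 7 probes lower in AX+ME mice than in SED mice, at a median of -0.10, and among them Cryab, the lens and glial chaperone alpha B-crystallin, was at 22.7 and 22.3 in AX+ME mice against 27.3 and 27.5 in SED mice on probe A_55_P1964408 (log2 difference -0.28, adjusted p = 0.0631). The chaperonin TRiC, which folds actin and tubulin, had a median of 0.02 over 8 probes. Chaperones of the endoplasmic reticulum had 5 of 7 probes higher in each treated group, at medians of 0.15, 0.14 and 0.11 in ME, AX and AX+ME mice against SED mice.

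In AX+ME against ME mice, the smallest p-values of this wider set were those of Hsf4 (log2 difference 0.26, adjusted p = 0.474), Hspa1l, a testis Hsp70 (0.27, adjusted p = 0.536), and Hspb6, a small heat shock gene of muscle (0.14, adjusted p = 0.618). In AX+ME against AX mice they were Hspa1l (0.36, adjusted p = 0.716), Hsf4 (0.21, adjusted p = 0.7503) and Dnajb2, an Hsp40 of neurons (0.15, adjusted p = 0.844). For the interaction they were Ppp5c (-0.63, adjusted p = 0.119), Hspa1l (0.52, adjusted p = 0.222) and Cryab (0.29, adjusted p = 0.272), and for exercise averaged over diets Ppp5c (0.36, adjusted p = 0.0789), Serpinh1, a collagen chaperone (-0.19, adjusted p = 0.170), and Hsf4 (0.17, adjusted p = 0.178). For astaxanthin averaged over activity they were Ppp5c (0.31, adjusted p = 0.0854), Ppid (-0.31, adjusted p = 0.0901) and Hspe1 (-0.21, adjusted p = 0.0996). None of these passed in limma. The Hspa1l probe was dim, at 0.040 to 0.063 of the 75th percentile over the arrays.

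**Figure D4:**
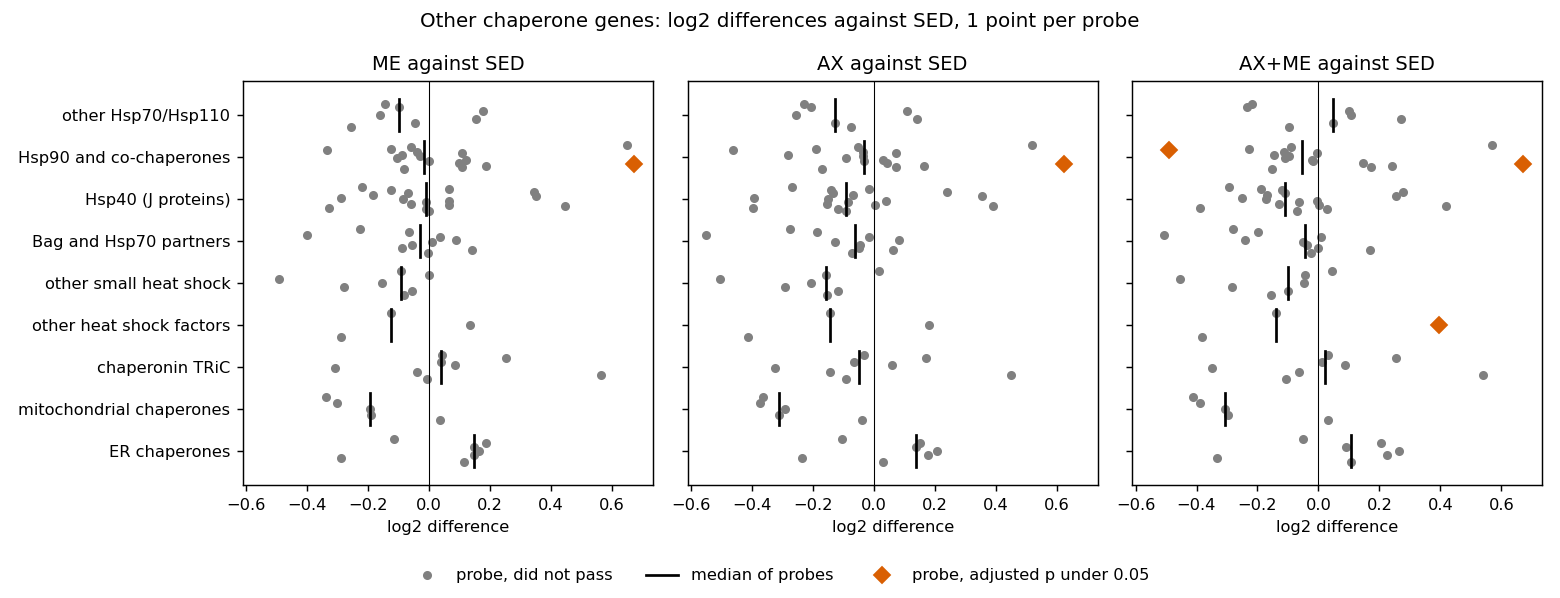
Log2 difference against SED (horizontal axis) of 80 probes of other chaperone genes in 9 lists, 1 grey point per probe, a black bar at the median of each list and orange diamonds where the adjusted p was under 0.05. The mitochondrial chaperones lie to the left with medians of -0.19, -0.31 and -0.31 in ME, AX and AX+ME mice, and Ppp5c is the diamond farthest to the right in each panel, with Hsf4 as another to the right of 0 in AX+ME mice.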

How the data were processed

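Per the submitters' processing notes, the arrays were read with Agilent Feature Extraction 11.0.1.1. The deposited scanner files hold, per the file headers, an intensity for each spot in each dye, with a processed intensity that is background-subtracted, and the authors' value table rounds it to whole numbers. Each array holds 1 sample, and its own dye was used. Spots flagged as outliers were left out, spots of a probe were averaged, and each signal was put over the 75th percentile of the non-control spots of its array and floored at 0.005 of it before log2. Probes had to stand well above background on the 2 arrays of some group, and the 37429 that did were fitted with limma 3.58.1 in R 4.3.3 as group plus dye over all 8 samples, with eBayes and Benjamini-Hochberg adjustment over these probes and a two-sided threshold of 0.05. The fit has 3 residual and 1.53 prior degrees of freedom, and the number of arrays limits the precision. Replicate number and dye are the same thing, so the dye term is the replicate block. Probe symbols come from the accession in the array design, whose coordinates were not used. The fit was tested on simulated data.

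Every member was named with all its probes. Of the other chaperone lists, probes past the threshold were named, at most 6 per comparison, or, where none passed, up to 3 with the smallest p that differed the same way in both dyes; Hspd1, Cryab and Hspe1 against SED were named after their values were seen. Members and lists were chosen with earlier results of these data known. Tried as alternatives were normexp background correction (on the median spot signal, the mean not being used here), quantile scaling, other percentiles and filters, the brightest probe of a gene, columns from 70 on, no dye term, the deposited value table, only the samples compared, and leaving out each sample. The percentile over averaged probes was fitted first; the spot percentile replaced it after those results had been seen, because it matches the printed percentile, and the earlier one is kept as an alternative.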

Additional observations from a re-analysis of the deposited data

Results flagged for a closer look

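For 3 member probes the exercise difference ran one way in both dyes on the placebo powder and the other way in both dyes on the astaxanthin powder. The 3 probes were picked by that pattern. How large a share of all probes shows it was not counted, so nothing can be read from their number. For Dnajb1 it was -0.31 and -0.60 on placebo (ME against SED) and 0.09 and 0.04 on astaxanthin (AX+ME against AX), with an interaction of 0.52 ± 0.13 (log2, ± SE, adjusted p = 0.252 in limma). For Hspa4 probe A_55_P2054157 it was -0.03 and -0.11 on placebo and 0.07 and 0.01 on astaxanthin, with an interaction of 0.10 ± 0.08 (adjusted p = 0.640 in limma). For Hspa4 probe A_55_P2061025 it was 0.52 and 0.19 on placebo and -0.39 and -0.01 on astaxanthin, with an interaction of -0.55 ± 0.41 (adjusted p = 0.613 in limma). None of the 3 interactions passed.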

How the results depend on the processing

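With 0 member probes called in each comparison, 132 of 151 recounts gave 0 again and 19 did not, and of 151 medians 129 stayed within the spread between dyes and 22 did not. Of 1605 probe values under the alternatives 1494 kept their direction, and 21 were called, all of Dnajb1 or Hspb1 and none with the sign turned. Dnajb1 alone was called (1 probe) for AX against SED under normexp (adjusted p = 0.0326) and with only probes detected on all arrays (0.0374), and for AX+ME against SED under those settings (0.0356 and 0.0363) and with the percentile over averaged probes (0.0482), which was fitted first; the spot percentile reported here, under which Dnajb1 did not pass, was chosen after seeing the data. Of all probes tested, normexp called 10.9% for AX and 16.7% for AX+ME against SED, and the filter on detected probes 5.19% and 8.7%. The percentile over averaged probes called 4.81% for AX+ME against SED. Without the replicate block, that is with no dye term, Dnajb1 was called for AX against SED (1 probe, adjusted p = 0.0414) and for AX+ME against SED (1 probe, 0.0456), and no other count or median moved. With no dye term 2.12% and 3.14% of all probes were called in these 2 comparisons. The Ppp5c, Ppid and Hsf4 calls were recomputed under the same settings, a step added after seeing the data, and none turned its direction.

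Medians of the members that moved were, under normexp, -0.175 in ME, -0.162 in AX and -0.176 in AX+ME mice against SED mice, -0.0890 for exercise and -0.0886 for astaxanthin. Normexp moved the median of all probes to -0.149, -0.132 and -0.122 in those 3 comparisons, and relative to it the members were at -0.025, -0.030 and -0.054. Under quantile scaling they were 0.0201 in AX and 0.0268 in AX+ME mice against SED mice, 0.0273 for exercise and -0.0170 for astaxanthin. With the percentile over probes detected on all arrays they were -0.0421 in AX mice against SED mice and -0.0361 for astaxanthin. The cause of these moves was not tested.

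Leaving out 1 sample gave 0 to 1 calls in ME, 0 to 2 in AX and 0 to 2 in AX+ME mice against SED mice, 0 to 1 for the interaction, for exercise and for astaxanthin, and 0 otherwise. Every call came with a SED sample left out, which left 1 SED sample, so the spread within SED no longer entered the fit. Without SED replicate 1 the Dnajb1 differences were -0.59 in ME, -0.77 in AX and -0.71 in AX+ME mice against SED. Without SED replicate 2 they were -0.32, -0.50 and -0.43, and those of Hspb1 were 1.48, 1.41 and 1.45. Medians ranged from -0.0719 to 0.0105 in ME, -0.0925 to -0.0517 in AX and -0.120 to -0.0143 in AX+ME mice against SED mice, -0.0622 to 0.0321 in AX+ME against ME mice, 0.00631 to 0.0372 in AX+ME against AX mice, 0.0166 to 0.0896 for the interaction, -0.0249 to 0.0234 for exercise and -0.0788 to -0.0344 for astaxanthin. Counts over all probes for AX+ME against SED ran from 0, with only the samples compared, to 6291 of 37429, without SED replicate 1, beside 1604 in the fit reported. Saturated probes give no difference, and 2 samples per group limit all tests.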
